A study of Harpegnathos saltator with 14 samples.

Results

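Late pupae of the ponerine ant Harpegnathos saltator were compared with larvae of instar 4, the 2 stages that bracket the remodelling of the larva into the adult body. The comparison used 4 of the 14 whole-body poly(A) RNA libraries of the series, 2 from late pupae and 2 from instar 4 larvae, chosen by their stage labels. The other 10 libraries, 2 each from embryos, instar 1 larvae, early pupae, adult workers and males, were not part of the test and served to show where else the changed genes were expressed. Early pupae stood between the compared stages in development, but their 2 libraries lay far apart and were left out of the test and described one by one. All animals came from laboratory nests, fed live crickets, and no group carried a treatment or a genetic change. The labels give no colony, sex, caste or age in days for the larvae and pupae, and do not say how many animals entered a library. Nothing says that replicates came from separate animals, and the p-values therefore reflect library-to-library spread alone, some of which may be technical.

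Ants are holometabolous insects, in which the feeding larva and the adult share few structures. In the pupa, larval tissues are broken down or rebuilt, adult appendages, eyes, muscles and nervous system are formed, and a new cuticle is laid down, under the control of ecdysteroid and juvenile hormone. The last larval instar is known as the stage in which the fat body makes storage proteins that the non-feeding pupa draws on. The deposited table gives identifiers of gene models without names, and 0 of its 20755 identifiers matched the RefSeq gene table of assembly Hsal_v8.6, so no gene below can be assigned to any of these processes. In whole bodies, fewer cells of a type and less RNA per cell cannot be told apart.

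Levels are given in RPKM, reads scaled to the length of the gene model and to library size, as the authors computed them. Reads in genes numbered 8394243 and 9828484 in the instar 4 libraries and 6667795 and 14217311 in late pupa replicates 1 and 2. They came to 55.1% of the library denominator in each instar 4 library and to 36.6% and 35.5% in late pupa replicates 1 and 2. The compared stages thus differed in this share, and its part in the deposited scale was not tested. Across the 10660 genes tested, the instar 4 libraries had a Pearson r of 0.974 on the log2(RPKM + 1) scale and the late pupa libraries 0.906. The r between libraries of different stages ran from 0.529 to 0.598. Genes are not independent replicates, and these coefficients describe the libraries only. A gap of 4-fold or more separated the instar 4 libraries in 31 tested genes and the late pupa libraries in 156.

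The transcripts that dominated the larva were a small share of those in the late pupa. The 971 genes called lower in late pupae (9.11% of those tested, as described below) made up 71.5% and 72.4% of the summed RPKM of the instar 4 libraries, and 2.58% and 2.87% in late pupae. The 2876 genes called higher (27%) made up 3.05% and 2.92% in instar 4 larvae, and 71.1% and 69.3% in late pupae. These genes were called on the same 4 libraries, so the shares describe the size of the exchange and test nothing. A few genes carried most of it. The 10 most abundant genes of instar 4 held 47.8% and 49.8% of the summed RPKM there, and 0.156% and 0.384% in late pupa replicates 1 and 2. The 10 most abundant genes of late pupae held 59.4% and 46.3% there, and 1.13% and 1.00% in instar 4.

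**Figure D1:**
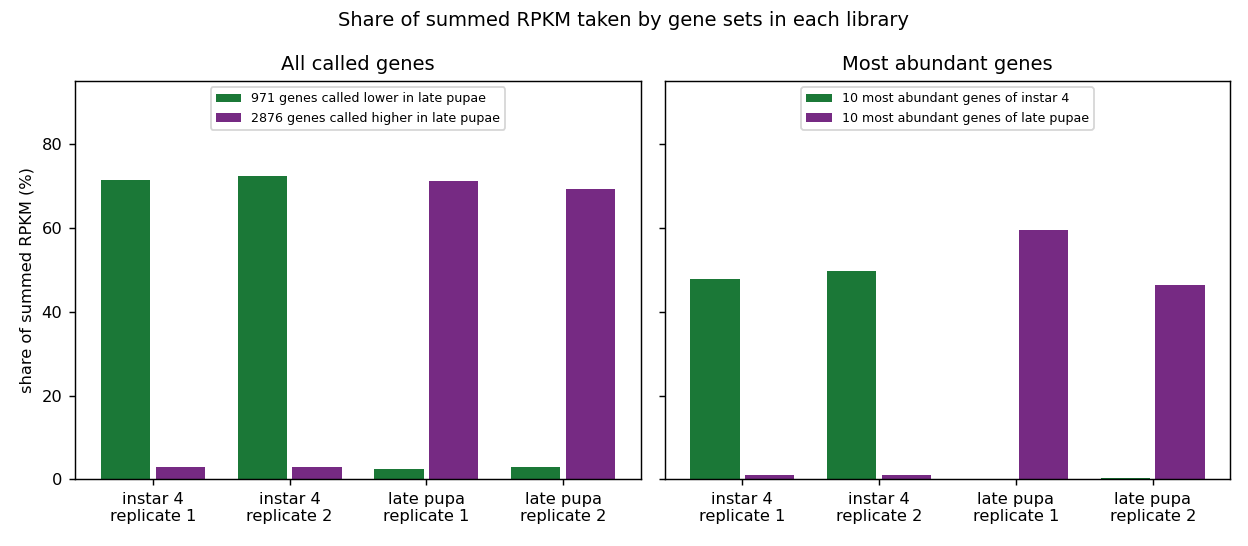
Share of the summed RPKM of each of the 4 libraries, in percent, taken by called genes (left) and by the 10 most abundant genes of each stage (right). Green bars reach 71.5% and 72.4% in instar 4 and purple bars 71.1% and 69.3% in late pupae on the left, and each set is below 4% in the other stage.

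Gene ranks were compared without a test. Among the 100 most abundant genes, the 2 instar 4 libraries shared 87 and the 2 late pupa libraries 71. Any instar 4 library shared between 22 and 25 with any late pupa library. At least 1000 RPKM in both libraries was reached by 24 genes in instar 4 and by 11 in late pupae, and 2 genes reached it in all 4 libraries. Of the 24 genes, chosen here for their larval level, 21 were called lower in late pupae, with 18 of them at least 64-fold lower. Of the 11 genes chosen for their pupal level, 9 were called higher, each at least 16-fold. As these sets were chosen on the compared libraries, their counts are a description beside 9.11% of all tested genes called lower and 27% called higher.

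Genes entered the test when 2 or more of the 4 libraries reached an RPKM of 1, and 3847 of 10660, or 36.1%, differed between late pupae and instar 4 larvae at an adjusted p below 0.05 (limma, Benjamini-Hochberg). Higher calls in late pupae numbered 2876 (27%) and lower calls 971 (9.11%). The higher genes had a median log2 difference of 1.37 and the lower genes of -1.73, on the log2(RPKM + 1) scale, on which changes of low genes come out too small. At least 4-fold changes were found for 720 higher and 404 lower genes, and at least 16-fold changes for 142 and 101. In each called gene both late pupa libraries lay on the same side of both instar 4 libraries, which held for 56.4% of all tested genes in the higher and 18.6% in the lower direction.

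The excess of higher calls depended on the scale. The median of all tested genes lay at 0.38 on the log2 scale. Scaling the 4 libraries to a common median moved every difference by -0.45 and gave 1562 higher (14.7%) and 1677 lower calls (15.7%). All 971 genes called lower as deposited were also called lower after scaling, with 706 more. A downward shift enlarges every lower difference, so this scaling was a check on the higher calls and not on the lower ones. Of the higher calls, 1314 of 2876 were lost and 1562 were kept. The 1562 higher (14.7%) and 971 lower genes (9.11%) called on both scales are used below. Their median log2 differences as deposited were 1.89 and -1.73.

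**Figure D2:**
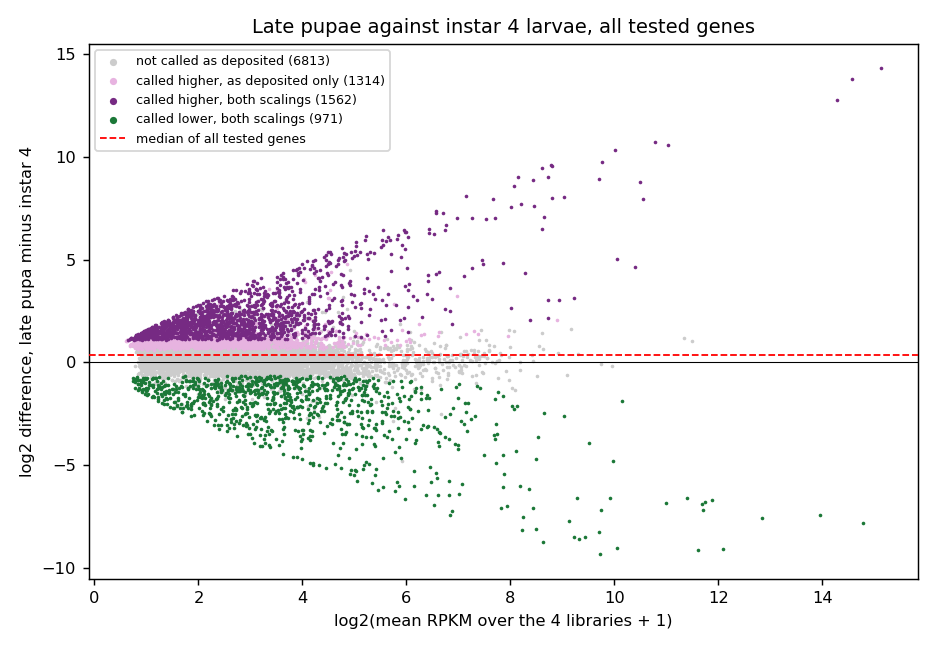
Log2 difference between late pupae and instar 4 larvae (vertical axis) against the log2 of the mean RPKM of the 4 libraries plus 1 (horizontal axis), 1 point per tested gene. The dashed line marks the median of all genes at 0.38. The pale points above it are the 1314 genes called higher only as deposited, among them HSALG000242.2 at 3.14.

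The counts also moved when 1 library was left out. Such a fit takes its spread from the intact pair alone. That pair was the late pupae when an instar 4 library was dropped, and instar 4 when a late pupa library was dropped. The SD of the log2 difference between paired libraries was 0.62 in late pupae and 0.37 in instar 4. Counts of calls from these fits therefore do not show which stage the calls rested on. The median log2 difference of all tested genes was 0.41 and 0.35 without instar 4 replicates 1 and 2. Without late pupa replicates 1 and 2 it was 0.45 and 0.31. Across 8 fits (as deposited, median scaling, quantile scaling, 12 libraries without the early pupae, and each of the 4 libraries left out), 810 genes were called higher and 385 lower every time. Their median log2 differences were 2.37 and -2.87, and they included 124 of the 142 genes at least 16-fold higher and 88 of the 101 at least 16-fold lower.

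HSALG005415.2 was both the most abundant gene of late pupae and the gene with the largest increase. It stood at 72499 and 69996 RPKM in the late pupa libraries and at 9.39 and 0.176 RPKM in the instar 4 libraries, where it had 91 and 2 reads. The late pupa libraries were close to each other and the larval libraries were both low, if far apart in relative terms. The log2 difference was 14.31 ± 1.04 (SE; limma, Benjamini-Hochberg adjusted p = 0.00125), and the call held in all 16 alternatives. XLOC_066657 had 54838 and 41744 RPKM in late pupae and 7.47 and 0.304 RPKM in instar 4, again without overlap. It rose by 13.81 ± 0.91 on the log2 scale (SE; limma, adjusted p = 0.00105). Together these genes took 12.6% and 16.6% of the gene reads in late pupa replicate 1 and 12.5% and 13.0% in replicate 2.

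Both genes were also found in early pupae. In early pupa replicate 1 HSALG005415.2 had 13656 RPKM and XLOC_066657 had 7329 RPKM, while early pupa replicate 2 had 67.3 and 31.8 RPKM. Workers were low, with 25.0 and 4.24 RPKM of HSALG005415.2 and 3 and 0 reads of XLOC_066657. Males were split. Male replicate 1 had 8.47 RPKM of HSALG005415.2 and 0.176 RPKM of XLOC_066657, and male replicate 2 had 239 and 208 RPKM.

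Among lower genes the largest decrease was that of HSALG028629.1. Its instar 4 libraries had 1794 and 1568 RPKM and its late pupa libraries 2.43 and 0.907 RPKM, with no overlap and little spread in the larvae. It fell by 9.36 on the log2 scale (SE 0.35; limma, adjusted p = 0.000401). Outside the comparison it was intermediate in workers, at 165 and 89.5 RPKM, and in early pupa replicate 2, at 219 RPKM, against 9.27 RPKM in early pupa replicate 1.

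HSALG004476.2 was abundant in both larval instars. Instar 1 larvae had 13461 and 11901 RPKM and instar 4 larvae 1715 and 10672 RPKM, so the instar 4 libraries differed several-fold. Late pupae had 9.66 and 4.53 RPKM, and the gene fell by 9.12 on the log2 scale (SE 0.91; limma, adjusted p = 0.00241). Both early pupa libraries were already low, at 36.2 and 35.2 RPKM. Workers had 0.355 and 0.160 RPKM and males 0.815 and 2.21 RPKM.

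HSALG006290.2 was the most abundant gene of instar 4, at 54866 and 56933 RPKM, with 29.4% and 30.5% of gene reads. Late pupae kept 193 and 321 RPKM, still above the 10.1 RPKM of each worker library. It fell by 7.81 on the log2 scale (SE 0.80; limma, adjusted p = 0.00261), a call lost in 1 of 16 alternatives, with no filter on low values (limma, adjusted p = 0.0543). Early pupa replicate 2 had 47139 RPKM, close to the larvae, and early pupa replicate 1 had 931 RPKM. Embryos and instar 1 larvae had at most 5.13 RPKM of it.

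**Figure D3:**
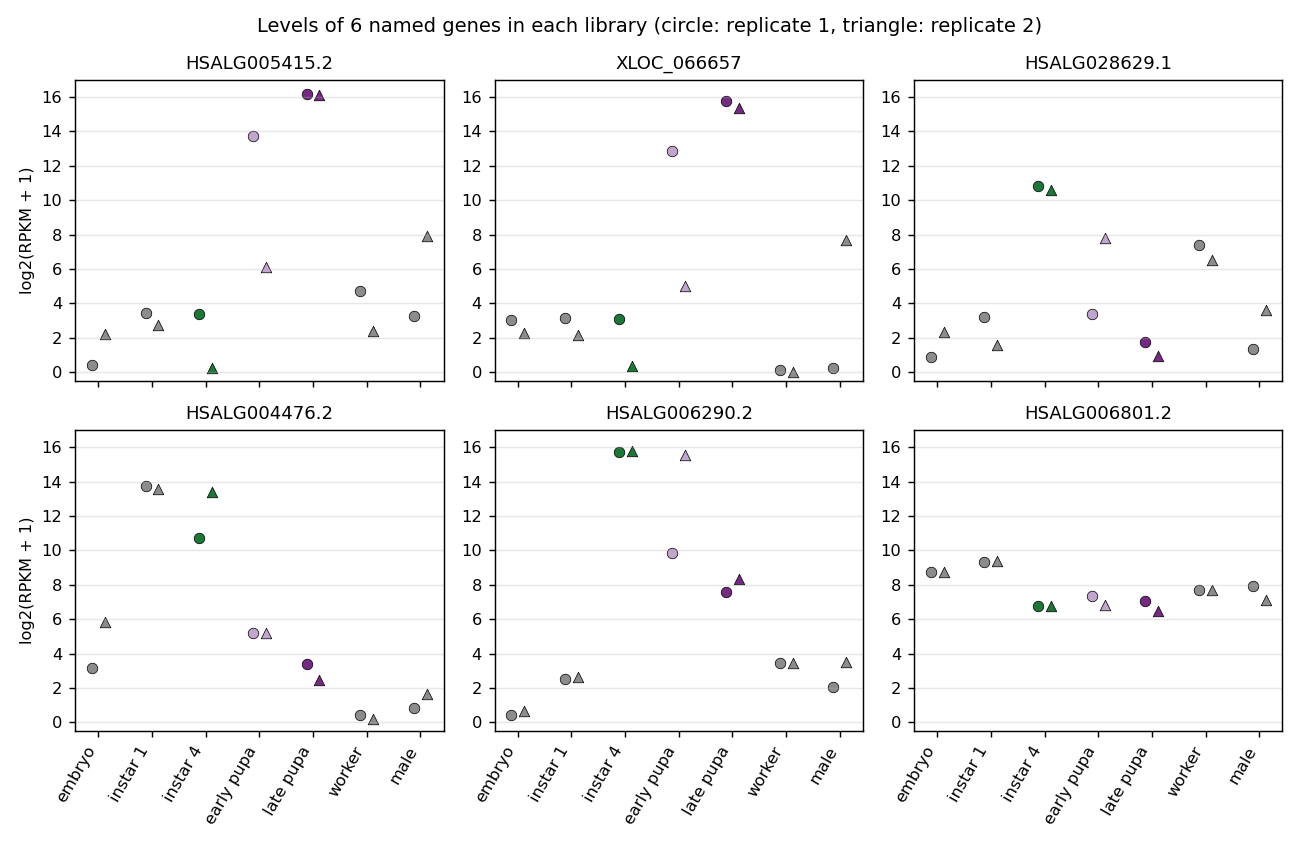
Log2(RPKM + 1) of 6 named genes in all 14 libraries by stage, with replicate 1 as circles and replicate 2 as triangles. The late pupa points of HSALG005415.2 and XLOC_066657 lie far above the instar 4 points, those of the next 3 genes far below, and HSALG006801.2 is level, with early pupa replicate 1 on the pupal side and early pupa replicate 2 on the larval side for 4 of the 5 changed genes.

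Abundant genes with a steady level existed as well. Of 105 genes with a mean of at least 100 RPKM in both stages, 89 were not called, 7 were called higher and 9 lower. Of all tested genes 27% were called higher and 9.11% lower. The 105 genes were chosen for a high level in both compared stages, so their counts are a description. The smallest difference was that of HSALG006801.2, with 109.9 and 110.0 RPKM in instar 4 and 134 and 89.5 RPKM in late pupae. The larval values lay between the pupal ones. HSALG023511.1 had 112 and 106 RPKM in instar 4 and 152 and 77.6 RPKM in late pupae. After median scaling both genes had a log2 difference of -0.46 (SE 0.37 and 0.45; limma, adjusted p = 0.395 and 0.484), and neither was called on that scale.

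Under 1 RPKM in both instar 4 libraries were 1392 tested genes, of which 1130 were called higher, and 86 had 0 reads there, of which 83 were called higher. Under 1 RPKM in both late pupa libraries were 254 tested genes, of which 224 were called lower, and all 15 with 0 reads there were called lower. The filter admits such genes only through the stage in which they are high, so their counts show no tendency of their own. Over the 4 compared libraries lower genes had a median RPKM of 11.4, against 4.14 for higher and 4.96 for all tested genes. This lay in instar 4, where lower genes had medians of 18.3 and 17.3 RPKM, beside 3.72 and 3.50 for all tested genes. In late pupae they had 3.54 and 3.41 RPKM, beside 4.93 and 5.70. Of 243 genes with a mean of at least 100 RPKM, 33.3% were called lower and 23.5% higher. In the 1991 genes with a mean under 2 RPKM the shares were 5.32% and 35.1%. On both scales together, the higher share was 21.0% in the most abundant and 15.6% in the least abundant class, the opposite order of the deposited scale.

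Gene models whose identifiers start with XLOC had a larger share of higher calls than those starting with HSALG. Of 303 XLOC models tested, 141 (46.5%) were called higher and 20 (6.60%) lower, beside 26.4% and 9.18% of 10357 HSALG models. On both scales the higher shares were 23.8% and 14.4%. The median log2 difference was 0.73 in XLOC and 0.37 in HSALG models. XLOC models were also lower in level, with a median of 3.28 RPKM against 5.03, and the part of level in these shares was not tested. Median lengths were alike, at 1119 and 1113 bases. Among models with reads in 4 or more libraries, lengths were multiples of 3 in 35.4% of XLOC and 98.1% of HSALG models. The lengths of the XLOC models are thus not of the same kind, and the part of this in the shares was not tested.

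The early pupa libraries fell on opposite sides of the comparison. Of the 1562 higher genes, 96.1% had a level in early pupa replicate 1 that was nearer to the late pupa mean than to the instar 4 mean, and 16.5% in early pupa replicate 2. For the 971 lower genes the shares were 83.1% and 25.8%. Over all tested genes they were 80.2% and 37.1%. After scaling all libraries to a common median, replicate 1 was nearer to late pupae for 83.9% of the higher and 97.2% of the lower genes, and replicate 2 for 16.5% and 25.8%, beside 73.7% and 34.4% of all tested genes. On that scale embryo replicate 1 was also nearer to late pupae for 82.6% of the lower genes, so such a share was not found in early pupae alone. These libraries were not used to call the genes. The shares carry no test, since genes of 1 library are not replicates.

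Genes with the strongest increase were high in early pupa replicate 1 and low in early pupa replicate 2 and in the stages outside the pupa. The 142 genes at least 16-fold higher had medians of 68.3 and 74.96 RPKM in late pupa replicates 1 and 2 and of 0.348 and 0.265 RPKM in the instar 4 libraries. Their median was 72.8 RPKM in early pupa replicate 1 and 0.920 RPKM in replicate 2. In the other 8 libraries medians ran from 0.755 RPKM in worker replicate 2 to 3.71 RPKM in male replicate 2. At least 10 RPKM in both libraries was reached by 14 of them in embryos, 25 in instar 1 larvae, 19 in workers and 27 in males, or 9.86% to 19.0%. The shares of all tested genes at that level were 27.3% to 42.4% in the same groups. The 142 genes are low in instar 4 by choice, and the part of this in their level elsewhere was not tested.

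The strongest decreases were found in other stages more often. The 101 genes at least 16-fold lower had medians of 150.5 and 180.2 RPKM in the instar 4 libraries and of 1.78 and 1.28 RPKM in late pupa replicates 1 and 2. They had medians of 69.1 RPKM in early pupa replicate 2, 23.4 and 25.4 RPKM in workers and 17.4 and 11.5 RPKM in instar 1 larvae. Embryos were low, at 1.28 and 3.04 RPKM. In workers 61 of the 101 genes (60.4%) had at least 10 RPKM in both libraries, beside 28.0% of all tested genes, and in instar 1 larvae 49 (48.5%), beside 27.7%. In embryos the number was 19 (18.8%), beside 42.4%. The genes are abundant in instar 4 by choice, and the part of this in their level elsewhere was not tested.

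**Figure D4:**
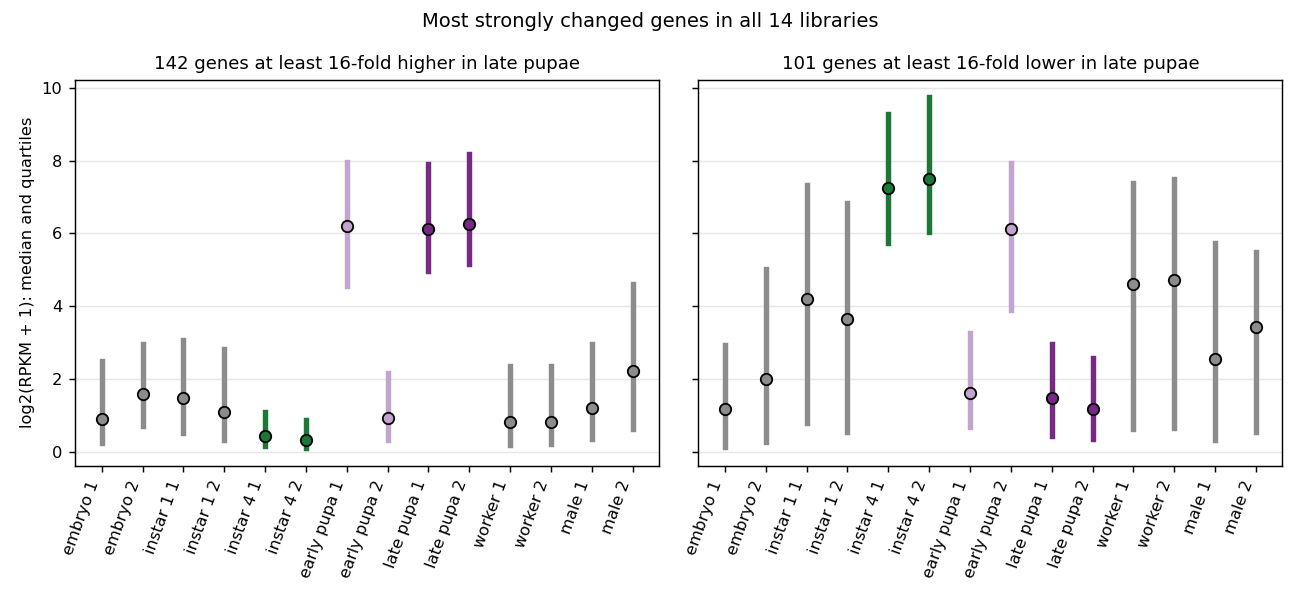
Median (point) and quartiles (bar) of log2(RPKM + 1) in each of the 14 libraries for the 142 genes at least 16-fold higher (left) and the 101 at least 16-fold lower (right) in late pupae. The left set is high in early pupa replicate 1 and the late pupae alone, and the right set is high in instar 4 and early pupa replicate 2, with workers at 23.4 and 25.4 RPKM.

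The called genes were also examined in libraries that were not used to call them. Workers were set against instar 1 larvae, an adult against a larval stage, with the same limma fit over the same genes. In workers 1732 of all tested genes (16.2%) were called higher and 2093 (19.6%) lower. Of the 1562 genes higher in late pupae, 542 (34.7%) were higher and 160 (10.2%) lower in workers. Of the 971 genes lower in late pupae, 249 (25.6%) were higher and 144 (14.8%) lower in workers. Both sets thus had a larger share of higher calls in workers than all tested genes, and their median log2 differences were 0.49 and 0.32 against -0.07 for all. After median scaling 38.0% of the higher set and 31.2% of the lower set were called higher in workers, against 20.7% of all genes. Without worker replicate 1 or 2 limma called 0 genes in this comparison, with 2412 and 2471 at an unadjusted p below 0.05. Without instar 1 replicate 1 it called 3649 genes higher in workers, and without replicate 2 it called 3780 lower.

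Embryos against instar 1 larvae gave few calls, 323 higher (3.03%) and 206 lower (1.93%) in embryos. Of the 1562 genes higher in late pupae, 71 (4.55%) were called higher in embryos and 28 (1.79%) lower. After median scaling 53 (3.39%) were called higher and 122 (7.81%) lower, beside 2.30% and 7.30% of all genes. The median log2 difference of the set moved from 0.51 to -0.31, and that of all tested genes from 0.59 to -0.23. The balance of higher and lower calls thus turned round in all tested genes as well. Of the 971 genes lower in late pupae, 34 (3.50%) were called higher and 92 (9.47%) lower in embryos, and after median scaling 24 (2.47%) and 227 (23.4%). The instar 1 libraries are shared with the worker comparison, so the results against workers and embryos are not independent of each other. Without any 1 of the 4 libraries limma called at most 1 gene, with 1494 to 2889 genes at an unadjusted p below 0.05.

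The stage of highest expression was counted for the called genes. The genes were chosen for a higher level in one of the compared stages, so the counts for late pupae and instar 4 rest in part on that choice and are a description. Leaving out the early pupae, 867 of the 1562 genes (55.5%) had their highest group mean in late pupae, 340 in embryos, 184 in males, 128 in workers and 43 in instar 1 larvae. Of all tested genes 14.3% had it in late pupae and 49.8% in embryos, so the 21.8% of the higher genes in embryos lay below the share of all genes. These counts used means of RPKM, and those after scaling used means of log2(RPKM + 1), so the kind of mean changed along with the scaling. After scaling to a common median the numbers were 1026 (65.7%) in late pupae and 96 (6.15%) in embryos, beside 18.2% and 15.8% of all genes. Of the 971 lower genes, 373 (38.4%) had their highest mean in instar 4, beside 5.19% of all genes, and after scaling 553 (57.0%), beside 16.7%. Among the 4 groups outside the comparison alone, the higher genes were highest in embryos in 44.5% and in workers in 24.1%, beside 58.1% and 12.8% of all genes. After scaling these shares were 18.9% and 37.5%, beside 24.2% and 23.2%. The lower genes were highest in workers in 31.1%, and after scaling in 40.6%. A stricter count asked for both libraries of the stage to exceed every library of the other 5 groups at least 8-fold. For late pupae 52 of the higher genes (3.33%) met it, and for instar 4 28 of the lower genes (2.88%). The count was not made over all tested genes, and the sets were chosen for that stage, so it is a description only.

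The 2 late pupa libraries differed from each other. Of the tested genes, 81 were at least 4-fold higher in replicate 1 and 75 in replicate 2. The 75 genes higher in replicate 2 had a median of 43.5 RPKM there and of 4.48 RPKM in replicate 1. Their median was 42.9 RPKM in early pupa replicate 1 and between 0.714 and 0.832 RPKM in the worker and male libraries. The 81 genes higher in replicate 1 had a median of 38.6 RPKM there and of 5.26 RPKM in replicate 2, with 5.22 RPKM in early pupa replicate 1. In males they had 10.5 and 17.9 RPKM, in workers 5.51 and 4.29 RPKM and in embryos 5.04 and 5.72 RPKM. Early pupa replicate 1 was nearer to late pupa replicate 1 than to replicate 2 for 11 of the 75 genes (14.7%), beside 33.3% of all tested genes, while the worker libraries were for 69 (92%) and 66 (88%), beside 67.2% and 62.4%. Genes chosen as high in 1 library tend to lie nearer to the other elsewhere by that choice, and in the 11 libraries other than the late pupae and early pupa replicate 1 the share ran from 77.3% to 92%. Late pupa replicate 2 was also the deeper library, and the part of depth in this difference was not tested.

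**Figure D5:**
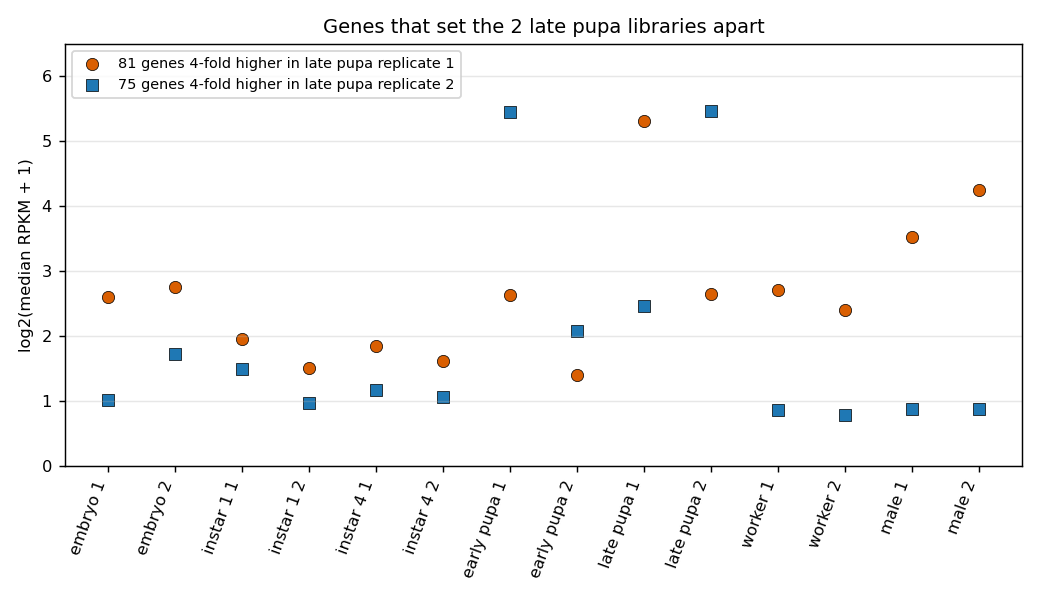
Log2 of the median RPKM plus 1 in each of the 14 libraries for the 81 genes at least 4-fold higher in late pupa replicate 1 (circles) and the 75 at least 4-fold higher in replicate 2 (squares). The squares are high in early pupa replicate 1 and late pupa replicate 2 alone, and the circles are higher than the squares in all embryo, larval, worker and male libraries.

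Single genes show how far the late pupae could differ. HSALG006682.1 had 349.8 RPKM in late pupa replicate 1 and 17.4 RPKM in replicate 2, the largest excess of replicate 1. It had 1 and 0 reads in the instar 4 libraries, 1 and 0 in the early pupa libraries and 0 in all 4 worker and male libraries. It rose by 6.26 ± 1.32 on the log2 scale in late pupae (SE; limma, adjusted p = 0.0194), and 3 of 16 alternatives did not call it. HSALG009540.2 had 1.68 RPKM in late pupa replicate 1 and 258 RPKM in replicate 2, on either side of the 50.5 and 47.0 RPKM of instar 4. Early pupae had 329 and 184 RPKM. It was not called (log2 difference -0.92 ± 2.04; limma, adjusted p = 0.747). The log2 difference was 2.38 without late pupa replicate 1 and -4.21 without replicate 2, in opposite directions. A lone library carries no spread of its stage, so a call from either fit would leave out the gap between the late pupae.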

How the data were processed

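Whole-body poly(A) RNA was sequenced in strand-specific libraries made by dUTP incorporation, per the labels' protocols. The authors deposited RPKM values, reads scaled to gene-model length and library size, for 20755 gene models in 14 libraries. Per the submitters' processing notes, STAR 2.5.0b and DESeq2 were among the tools, without their roles. What counted the reads, on which genome build, was not given in the sources used here.

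Whole reads and model lengths were resolved from the steps of the RPKM values, within a relative tolerance of 1e-05, for all 18543 models above 0. For a few very long models the length may be a multiple of the true one, and their reads, which enter the read totals and shares, with it. Denominators ran from 11378690 to 40062880 reads. Lengths were multiples of 3 in 98.1% of HSALG and 35.4% of XLOC models with reads in 4 or more libraries, so most HSALG lengths are coding lengths. Reads carry no molecular identifiers and cover counting error only.

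Genes reaching an RPKM of 1 in 2 or more of the 4 libraries were tested with limma 3.58.1 in R 4.3.3 on log2(RPKM + 1), with a variance trend, only the libraries compared and no block, two-sided, adjusted over all tested genes (Benjamini-Hochberg, 0.05). The 2 comparisons with instar 1 larvae used the same genes. A called gene passed that adjusted p. Named genes were the 2 with the largest differences in each direction among called genes without overlap, with at least 2-fold change and a mean of at least 10 RPKM in the higher stage, the most abundant gene of each stage, the 2 steadiest genes with a mean of at least 100 RPKM in both, and the gene with the largest difference between the late pupa libraries in each direction. The members, rules and alternatives were chosen with earlier results of these data known. The scripts were tested on simulated data. Python 3.11.15 with numpy 2.4.6, pandas 2.3.3 and matplotlib 3.10.9 was used for descriptions and figures.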

Additional observations from a re-analysis of the deposited data

How the results depend on the processing

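Alternatives changed 1 choice at a time. Among 96 recomputed counts of calls, 57 were within 1.5 times of the reported count and 39 were not. For the named genes, 131 recomputed differences had the reported direction and call, 8 had the other sign and 4 lost a call. HSALG009540.2 gained a call in 2 alternatives, in 1 of them with the other sign. With 2 libraries per group, each count rests on few degrees of freedom, and a lone library is taken to vary as the remaining groups do. Low genes are limited by depth, since 1 read at a model of 1500 bases is worth 0.0166 to 0.0437 RPKM in these 4 libraries. Apart from fewer genes or libraries entering, the cause was not tested.

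For late pupae against instar 4 larvae, genes called higher and lower numbered 1562 and 1677 under median scaling, and 840 and 408 with all 14 libraries. The higher count was 1370 under quantile scaling and 1222 at a mean RPKM of at least 5, which tests fewer genes. Leaving out each library gave 989 to 3154 higher and 520 to 914 lower calls. For workers against instar 1 larvae, calls were 1022 higher and 1123 lower with no filter and 874 and 1063 at a mean RPKM of at least 5, and leaving out each library gave 0 to 3649 higher and 0 to 3780 lower. For embryos against instar 1 larvae, calls were 0 and 0 with no filter (limma, 3719 genes at unadjusted p below 0.05), 132 higher under quantile scaling, 778 lower under median scaling, 3368 and 652 with 12 libraries without early pupae, 2605 and 469 with all 14, 1131 and 347 with limma-voom, and 0 to 0 and 0 to 1 when each library was left out.

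The numbers of the replicates were not taken as pairs, since the correlation of the deviations of same-numbered libraries was -0.04 and the labels do not say what a number marks. The replicate block gave 2707 higher and 938 lower calls for late pupae against instar 4 larvae, and 640 higher for embryos against instar 1 larvae.

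The steady genes changed sign with small values. HSALG006801.2 came to 0.11 under quantile scaling, 0.016 with limma-voom and ran from -0.29 to 0.28 without late pupa replicate 1 and 2. HSALG023511.1 came to 0.094 under quantile scaling, 0.028 with limma-voom, 0.030 without instar 4 replicate 1, and -0.49 and 0.47 without late pupa replicates 1 and 2. HSALG009540.2 turned to 2.38 without late pupa replicate 1 and stood at -4.21 without replicate 2.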

Other observations

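Male replicate 2 held transcripts of the late pupa at levels that male replicate 1 did not reach. The 11 genes with at least 1000 RPKM in both late pupa libraries had a median of 208 RPKM in male replicate 2 and of 2.83 RPKM in male replicate 1, and of 4.04 and 3.01 RPKM in workers. They made up 7.42% of the summed RPKM of male replicate 2 and 1.60% of that of replicate 1. For the 142 genes at least 16-fold higher in late pupae the medians were 3.71 and 1.32 RPKM in male replicates 2 and 1. Workers had 11.2% and 5.95% of their summed RPKM in the 11 genes although the medians were low, as 4 of the 11 had at least 100 RPKM in both worker libraries. The labels give no age for the males.

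The 24 genes with at least 1000 RPKM in both instar 4 libraries were also not all larval. In both worker libraries 10 of them had at least 100 RPKM, in both instar 1 libraries 10, in both male libraries 6 and in both embryo libraries 5. In both late pupa libraries the number was 6. In early pupa replicate 2 the number was 22, and in early pupa replicate 1 it was 9. The share of all tested genes at 100 RPKM was not counted, so these numbers are a description. The 24 genes were chosen for a high level in instar 4. These 24 genes made up 16.5% and 11.1% of the summed RPKM of the worker libraries, against 56.8% and 57.1% in instar 4.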
